A study of Sus scrofa with 20 samples.

Results

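The genes described here encode the translation factors and the aminoacyl-tRNA synthetases, as they were measured in peripheral blood mononuclear cells (PBMC) of weaned piglets. Members were chosen by gene symbol alone: symbols starting with EIF1 to EIF6, EEF1 or EEF2, the synthetase symbols of the form xARS or xARS2, and EPRS, without the eIF2 kinases. This rule found 77 genes among the 13664 genes that the array names. Of these, 3 are argonaute genes that the array lists under the older EIF2C symbols, and they are described apart. The remaining 74 genes comprised 40 initiation factors with their regulators, 8 elongation factors with their partners, 15 cytosolic synthetases and 11 mitochondrial synthetases. A filter on low values left 38, 6, 13 and 11 of these, 68 in all. For it, a probe set had to exceed its array's median in 16 or more of the 20 animals, whatever their diet. A gene's values are those of its brightest probe set unless another is named.

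The piglets were German Landrace females and castrated males. They were fed cereal and soybean based diets without added phytase from weaning onwards. The animals of the L group received a diet low in phosphorus (P) and calcium (Ca), and those of the M group the recommended levels, which served as the control diet. Those of the H group received high levels of both minerals. The study reports that H animals ate less and gained less weight in the later weeks. It also reports parakeratosis and lower serum zinc in this group. These went with the diet, and their part in the differences described below was not tested. Blood was drawn at an age of 63 days, and 1 array was available per animal, from 6 animals of the L group (3 females, 3 castrated males), 7 of the M group (4 females, 3 castrated males) and 7 of the H group (3 females, 4 castrated males). Littermates were among the animals, and the litters are not in the sample labels. PBMC are a mixture of lymphocytes and monocytes, so each value is an average over the cells of a blood sample.

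In translation initiation, eIF2 brings the initiator tRNA to the small ribosomal subunit, eIF3 holds the assembly together, and the eIF4 factors bind the cap of the mRNA and unwind its leader. eIF1, eIF1A and eIF5 govern the choice of the start codon, and eIF2B reloads eIF2 with GTP for the next round. In elongation, eEF1 delivers the aminoacyl-tRNAs and eEF2 moves the ribosome along. Each synthetase charges its own tRNAs with their amino acid, in the cytosol or in the mitochondria. Lymphocytes are known to raise this machinery when they leave the resting state, and the reloading of eIF2 and the cap binding by eIF4E are the classical points of its control by stress kinases and by mTOR.

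Array medians lay between 4.29 and 4.46 on the log2 scale, and pairs of arrays correlated between 0.958 and 0.985. The 69 background control probe sets averaged 3.63 to 4.10 in animals of the L group, 3.57 to 4.17 in the M group and 3.63 to 3.94 in the H group. Of the markers that define PBMC, 6 of 11 of T cells, 6 of 8 of B cells, 6 of 7 of NK and cytotoxic cells and 7 of 10 of monocytes passed the filter. In addition, 9 of 13 neutrophil markers and 6 of 8 erythroid markers passed it, although a density gradient removes most of these cells.

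The largest contrast of the design, animals of the H group against those of the L group, showed no member that passed the threshold of an unadjusted p under 0.01 with a q under 0.21. By this rule 0.0107% of the 9346 genes tested were called lower and 0.0107% higher in the H group. The smallest q among the members was 0.434, of EIF3K (limma, Storey q). Over all 22127 probe sets, this fit called 3 higher and 3 lower in the H group. The study called many more at the same threshold, and EEF1A1 and EIF3K were among the genes it listed. Its model also held litter and its filter used presence calls. The cause of this departure was not tested. At an unadjusted p under 0.05 (limma), 6 of the 68 members were lower in the H group (8.82%), against 4.21% of all genes, and 0 were higher, against 4.96% of all genes. At an unadjusted p under 0.01 the count was 1 lower, EIF3K (0.781% of all genes), and 0 higher (1.4% of all genes). The difference of H minus L was below 0 for 53 of the 68 members (77.9%) and for 54.9% of all genes, and it was above 0 for 15 members and for 45.1% of all genes. No member had H and L animals without overlap, whereas 0.128% of all genes had every H animal below every L animal and as many had every H animal above.

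The groups of members lay close together. The median log2 fold change of H minus L was -0.12 over the initiation factors (31 of 38 below 0), -0.12 over the elongation factors (5 of 6), -0.08 over the cytosolic synthetases (9 of 13) and -0.06 over the mitochondrial synthetases (8 of 11), and it was -0.02 over all genes. Single members ran from -0.47 to 0.24, and over all genes the 10th and 90th percentiles were -0.26 and 0.23. The standard errors of the members were between 0.09 and 0.20, and the 95% intervals reached on average (median) 0.30 to either side. No interval reached a change of 1 on the log2 scale in either direction.

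**Figure D1:**
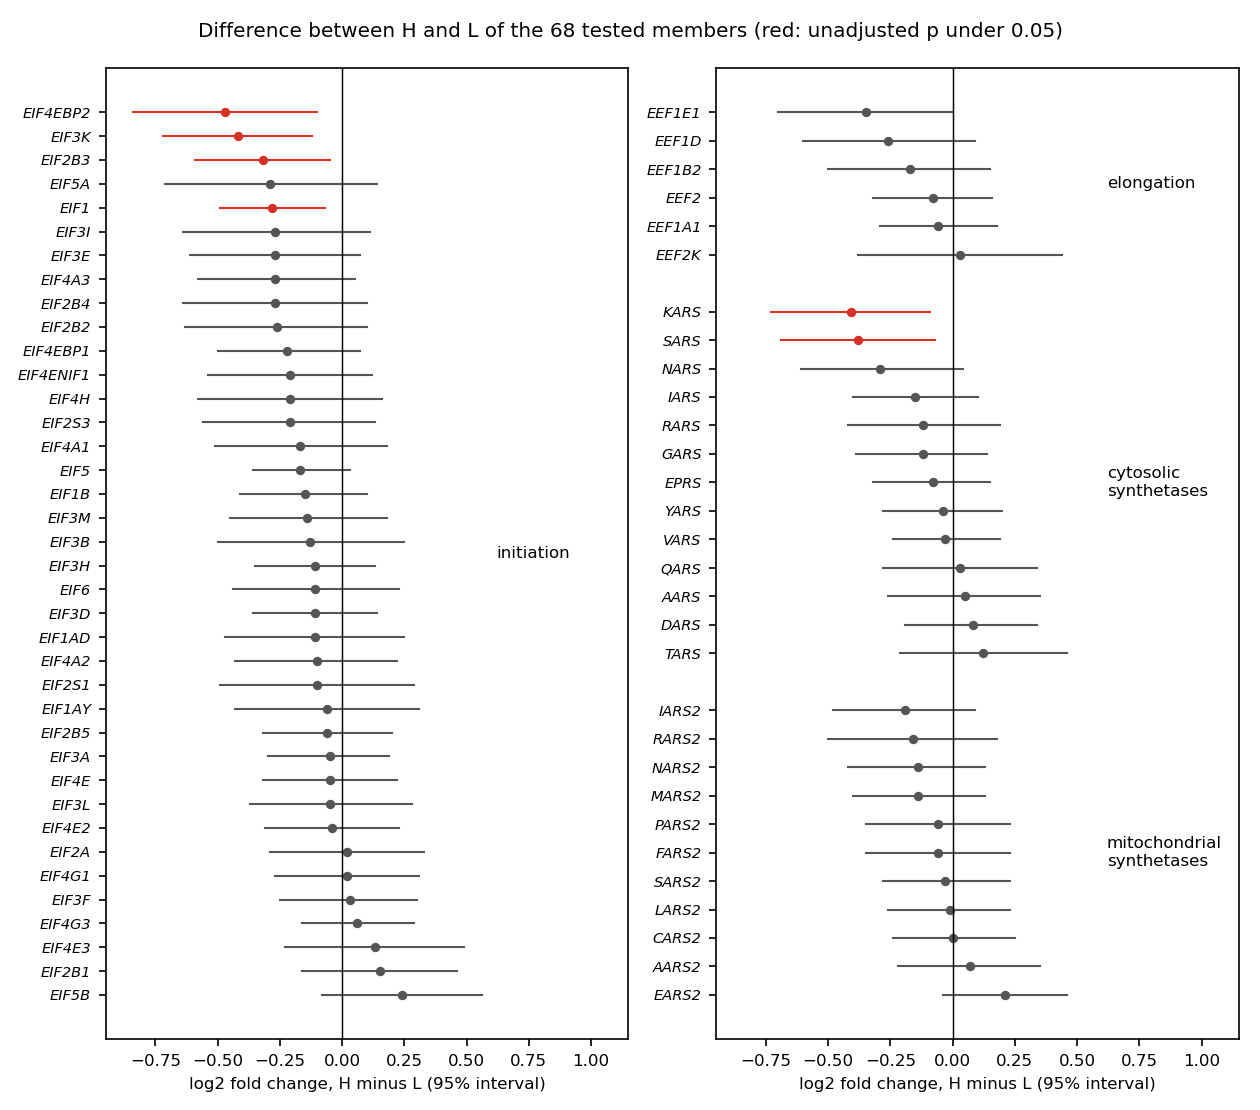
Log2 fold change of H minus L (x axis) of the 68 tested members with its 95% interval from the limma fit, by group of members (initiation on the left, the other 3 groups on the right). The 6 red genes have an unadjusted p under 0.05, all of them below 0, and no interval reaches -1 or 1.

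Cell type markers moved with this contrast. The median log2 fold change of H minus L was -0.37 over the 6 T cell markers (2 lower at p under 0.05) and -0.34 over the 6 B cell markers (1 lower), and it was 0.80 over the 7 monocyte markers (5 higher), 0.43 over the 9 neutrophil markers (3 higher) and 1.08 over the 9 genes of the interferon response (7 higher). Of the 9 neutrophil markers, 7 lay above 0 and 2 below it, ARG1 (-0.30) and PGLYRP1 (-0.21). Over the 10 genes of dividing cells the median was -0.36 (2 lower). Over the 6 erythroid markers it was -0.55 (6 of 6 below 0), over the NK and cytotoxic markers -0.08 and over the platelet markers 0.18, with 0 past p under 0.05 in these 3 lists. CD3E and CD3G of the T cell receptor complex had -0.42 ± 0.19 and -0.51 ± 0.21 (SE), and the monocyte genes CD14 and CD163 had 0.75 ± 0.33 and 1.05 ± 0.45. The mean deviation of the T cell markers from their 20-array means was -1.0, -0.18 and 0.23 (lowest, median, highest) in H animals, against -0.14, 0.21 and 0.37 in L animals. For the monocyte markers it was -0.26, 0.59 and 1.07 in H animals, against -1.18, -0.24 and 0.30 in L animals, so both levels overlapped between the groups. In such a mixture, fewer cells of a type and less RNA per cell cannot be told apart. In a further fit, the mean standardized values of the neutrophil markers and of the monocyte markers entered as separate covariates. There, 48 of 68 members lay below 0, as did 49.8% of all genes. EEF1E1, EIF2B3 and EIF3K were then lower at p under 0.05 (2.15% of all genes) and EARS2 was higher (1.2% of all genes). KARS (-0.31), SARS (-0.37), EIF1 (-0.22) and EIF4EBP2 (-0.15) were not past it. The part of the lymphocyte, erythroid and dividing cell lists in the result was not tested.

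**Figure D2:**
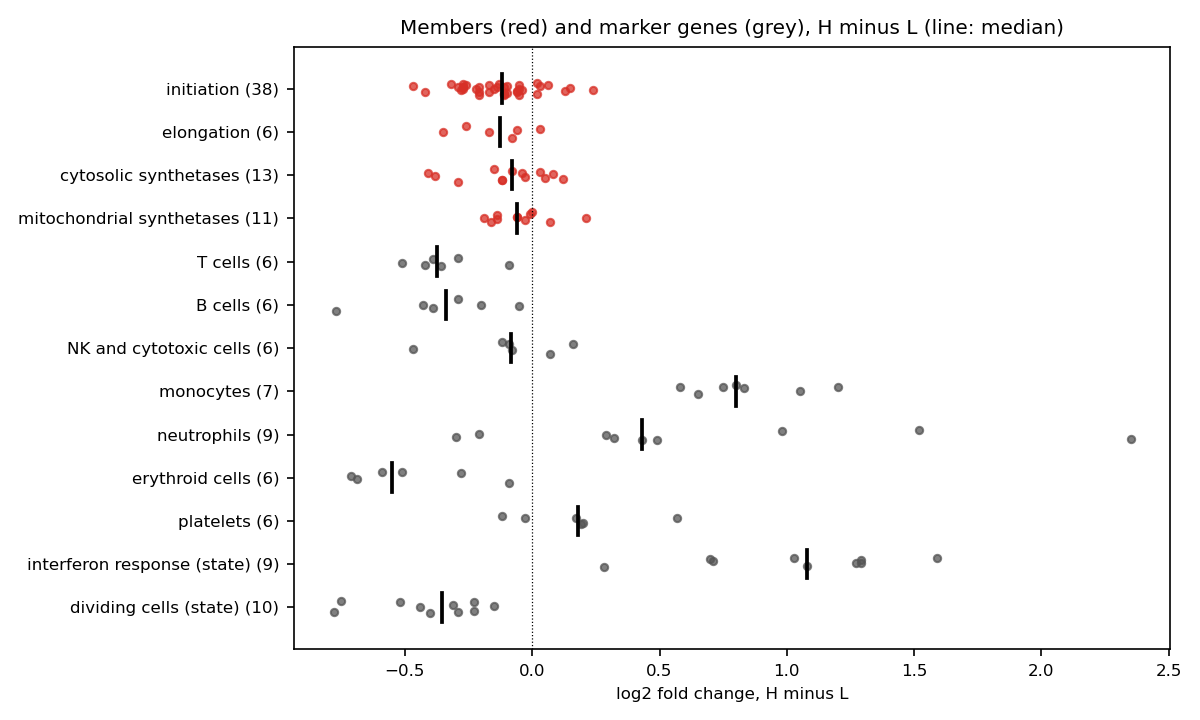
Log2 fold change of H minus L (x axis) of single genes, with 1 point per gene and the number of genes in brackets, for the 4 groups of members (red) and for the marker lists (grey); black lines are medians. The members spread between -0.47 and 0.24, the monocyte and interferon genes lie to the right of 0, and the T cell and B cell markers to its left.

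Within initiation, EIF3K was the member with the smallest p. It encodes a small subunit of eIF3, the scaffold that binds the small ribosomal subunit. EIF3K had 10.24, 10.71 and 10.91 (lowest, median, highest log2 value) in the 7 animals of the H group, against 10.81, 11.07 and 11.18 in the 6 animals of the L group. Of the 7 H animals, 6 lay below the lowest L animal, and the remaining animal was inside the L range. The log2 fold change was -0.42 ± 0.14 (SE), which is 0.748 times the L level (p = 0.00826, q = 0.434, limma), and the two-sided exact permutation test over 1716 splits gave p = 0.00583. The smallest p this test can give is 0.000583, it was run on 27 named members, and its p-values are not adjusted. The M animals had 10.13, 10.86 and 11.14 and overlapped both groups. EIF3K stands in a list the study chose on these animals, so its direction is not independent evidence.

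The other 9 eIF3 subunits on the array had smaller differences. Among the 10 subunits, 9 were below 0 and the median log2 fold change was -0.12. EIF3E and EIF3I had -0.27 ± 0.16 and -0.27 ± 0.18, and EIF3F had 0.03 ± 0.13 on its brightest probe set. EIF3H, the initiation factor of highest value, averaged 11.27 ± 0.15 in H animals and 11.39 ± 0.14 in L animals (SD; log2 fold change -0.11 ± 0.12, exact permutation p = 0.182). None of these 9 subunits was past p under 0.05.

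EIF1, which keeps the scanning ribosome from starting at the wrong codon, had 8.04, 8.42 and 8.46 in H animals, against 8.41, 8.64 and 8.81 in L animals. All 7 H animals were below the L median, and 3 of them below the lowest L animal. The log2 fold change was -0.28 ± 0.10, or 0.824 times the L level (p = 0.0118, q = 0.442, limma; exact permutation p = 0.0111). The other 3 probe sets with this name were above the array median on 0 arrays and gave no information. Its partner EIF5, which makes eIF2 hydrolyse GTP once the start codon is found, had -0.17 ± 0.09 (exact permutation p = 0.0758). The other kept probe sets of EIF5 had -0.04 ± 0.14 and 0.04 ± 0.20. In the same step, EIF5B, which joins the large subunit, had the highest log2 fold change of all members, 0.24 ± 0.15 (q = 0.659), and EIF1B had -0.15 ± 0.12.

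EIF2B3 encodes a subunit of eIF2B, the exchange factor that reloads eIF2. It had 5.59, 5.89 and 6.32 in H animals, against 5.96, 6.31 and 6.46 in L animals. Of the 7 H animals, 5 were below the lowest L animal, and the other 2 spread over the L range. The log2 fold change was -0.32 ± 0.13 (p = 0.0239, q = 0.487, limma; exact permutation p = 0.0291). Of the other subunits of eIF2B, EIF2B4 and EIF2B2 had -0.27 ± 0.18 and -0.26 ± 0.18, and EIF2B5 had -0.06 ± 0.12, all with p over 0.05. EIF2B1 had 0.15 ± 0.15 on its brightest probe set and -0.15 ± 0.13 and -0.17 ± 0.14 on its other 2 kept probe sets, so its direction depends on the probe set. EIF2S1, the subunit of eIF2 that stress kinases phosphorylate, had 6.62, 7.37 and 7.64 in H animals, against 6.92, 7.4 and 7.86 in L animals (-0.10 ± 0.19, exact permutation p = 0.659). Its 95% interval ran from -0.49 to 0.29.

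EIF4EBP2 encodes a repressor that holds eIF4E away from the cap complex until mTOR phosphorylates it. It had 6.82, 7.48 and 7.84 in H animals, against 7.34, 7.90 and 8.33 in L animals. All 7 H animals were below the L median, with 2 of them below the lowest L animal. The log2 fold change was -0.47 ± 0.18, or 0.723 times the L level (p = 0.0155, q = 0.455, limma; exact permutation p = 0.042), and the second probe set of the gene had -0.62 ± 0.25 (p = 0.0233). Its relative EIF4EBP1 had 7.05, 7.37 and 7.70 in H animals, against 7.30, 7.57 and 7.73 in L animals (-0.22 ± 0.14, exact permutation p = 0.107).

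The cap complex itself had no member past p under 0.05. EIF4E, which binds the cap, had 7.79, 8.09 and 8.44 in H animals, against 7.73, 8.16 and 8.42 in L animals (-0.05 ± 0.13, exact permutation p = 0.753), with a 95% interval from -0.32 to 0.22. The 9 tested members of cap binding, scaffold and helicase function had a median of -0.05, and 6 of them were below 0. The helicase EIF4A1 had -0.17 ± 0.17 and the scaffold EIF4G1 had 0.02 ± 0.14, whereas EIF4A3, a helicase that works in the exon junction complex rather than at the cap, had -0.27 ± 0.15. EIF4E3, a relative of EIF4E, had 0.13 ± 0.17 on its brightest probe set and 0.27 and 0.28 on its other 2 kept probe sets, none past p under 0.05.

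**Figure D3:**
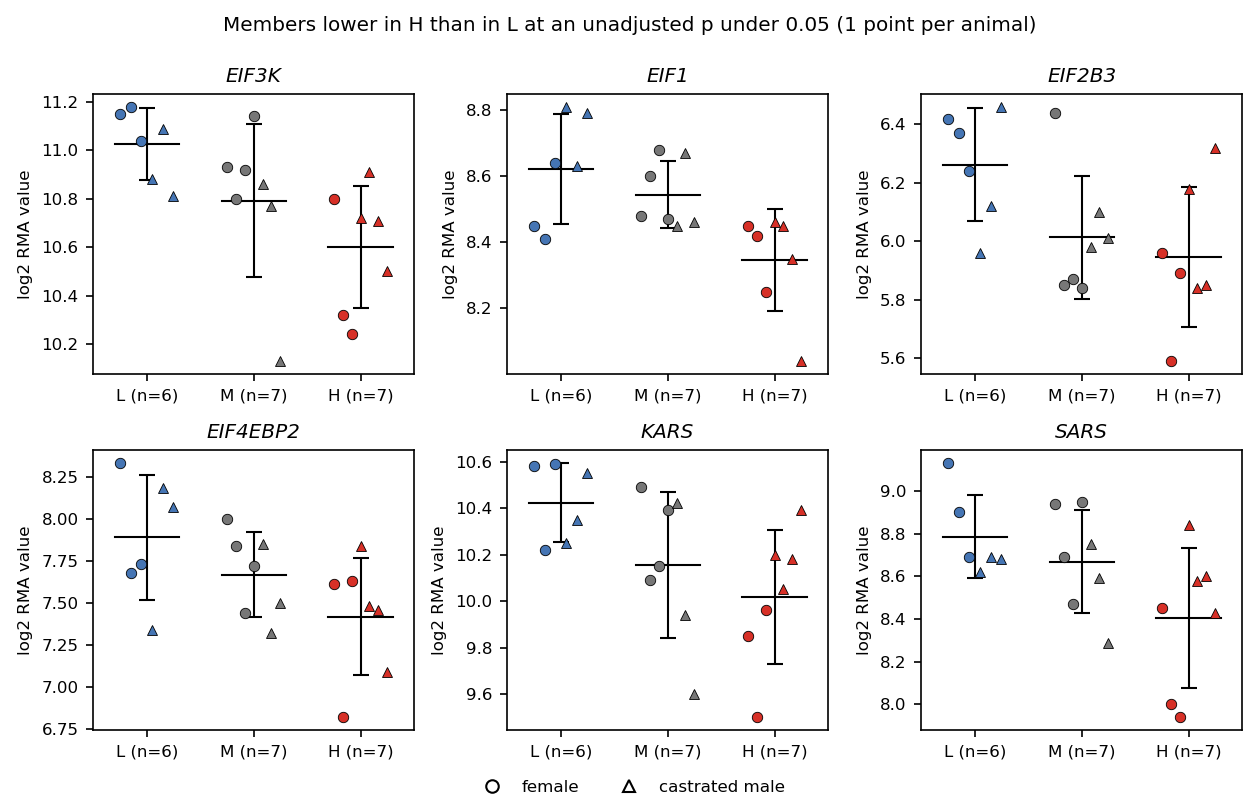
Log2 RMA value (y axis) of the 6 members lower in H than in L at an unadjusted p under 0.05, with 1 point per animal (circles are females, triangles castrated males), for the diets from low to high mineral content; bars are the mean and SD of each group. In each gene H and L animals overlap, and in EIF3K, KARS and SARS 6 of the 7 H animals lie below the lowest L animal.

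Of the elongation factors, none was past p under 0.05 in H against L. EEF1A1, which carries aminoacyl-tRNA to the ribosome and was the member of highest value, had 12.72, 13.09 and 13.25 in H animals, against 12.86, 13.15 and 13.21 in L animals. The groups overlapped almost completely, and the log2 fold change was -0.06 ± 0.11 (exact permutation p = 0.529, 95% interval -0.29 to 0.18). EEF1A1 is in a list that the study chose on these animals, where it was lower in H than in L. The brightest probe set did not show that difference here, and which probe set the study used is not stated. Of 2 further probe sets with its name, above the array median on 13 and 0 arrays, none was tested. The first of them had a median of 4.29 in H animals, against 4.57 in L animals. The exchange subunits EEF1B2 and EEF1D had -0.17 ± 0.16 and -0.26 ± 0.17. EEF1E1, which despite its name is a scaffold of the synthetase complex, had 5.68, 6.32 and 6.68 in H animals, against 6.33, 6.59 and 6.73 in L animals (-0.35 ± 0.17, exact permutation p = 0.0734). EEF2, the translocase, had -0.08 ± 0.12 (exact permutation p = 0.568), and its kinase EEF2K had 0.03 ± 0.20 (exact permutation p = 0.852).

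Among the 13 cytosolic synthetases, KARS and SARS were lower in H than in L at p under 0.05, and the other 11 were not past it. KARS, the lysyl-tRNA synthetase, had 9.50, 10.05 and 10.39 in H animals, against 10.22, 10.45 and 10.59 in L animals. Of the 7 H animals, 6 were below the lowest L animal. The log2 fold change was -0.41 ± 0.15, or 0.753 times the L level (p = 0.0147, q = 0.455, limma; exact permutation p = 0.00991), and a dimmer probe set of the gene had -0.24 ± 0.12 (p = 0.0686). SARS, the seryl-tRNA synthetase, had 7.94, 8.45 and 8.84 in H animals, against 8.62, 8.69 and 9.13 in L animals. Here too 6 of 7 H animals were below the lowest L animal, and the log2 fold change was -0.38 ± 0.15 (p = 0.0199, q = 0.469, limma; exact permutation p = 0.0268). The next members by p were NARS, for asparagine, with -0.29 ± 0.15 (exact permutation p = 0.0997) and IARS, for isoleucine, with -0.15 ± 0.12 (exact permutation p = 0.0886). GARS, which like KARS also serves the mitochondria, had -0.12 ± 0.13. TARS, DARS, AARS and QARS lay above 0, between 0.03 and 0.12.

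The mitochondrial synthetases showed no member past p under 0.05. Of the 11 genes, 8 lay below 0, and the log2 fold changes were between -0.19 ± 0.14 (IARS2, exact permutation p = 0.109) and 0.21 ± 0.12 (EARS2, exact permutation p = 0.101). EARS2, for glutamate, had 5.55, 5.70 and 6.06 in H animals, against 5.30, 5.52 and 5.80 in L animals. NARS2, MARS2 and RARS2 had -0.14 ± 0.13, -0.14 ± 0.13 and -0.16 ± 0.16.

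Set against the control diet, the H group showed 0 members called, where 0.0428% of all genes were called lower and 0.0% higher. At an unadjusted p under 0.01 there were also 0 members, where 1.07% of all genes were lower and 0.61% higher. There were 2 members lower (2.94%) at an unadjusted p under 0.05 and 0 higher, where 3.2% of all genes were lower and 3.98% higher. Of the 68 members, 44 lay below 0 (64.7%), as did 51.8% of all genes, and the median was -0.03. Marker lists moved in this contrast too: the median log2 fold change of H minus M was -0.83 over the 6 erythroid markers (3 lower at p under 0.05), -0.34 over the T cell markers (1 lower), -0.36 over the genes of dividing cells (2 lower), 0.64 over the monocyte markers (2 higher), 0.15 over the neutrophil markers (2 higher) and 0.85 over the genes of the interferon response (6 higher). Of the 9 neutrophil markers, 3 lay below 0. Over the B cell, NK and cytotoxic and platelet markers the median was -0.01, -0.44 and 0.51, with 0 past p under 0.05. With the same neutrophil and monocyte covariates, 0 members and 424 of 22127 probe sets were lower in H than in M at p under 0.05. The part of the other lists was not tested. EIF5 had 9.43, 9.75 and 9.92 in H animals, against 9.82, 9.91 and 10.13 in M animals (-0.23 ± 0.09, q = 0.624, limma). In H minus L, the brightest probe set of EIF5 had -0.17 and its other 2 kept probe sets had -0.04 and 0.04. Their H minus M values are not given here. EIF1 had 8.04, 8.42 and 8.46 in H animals, against 8.45, 8.48 and 8.68 in M animals (-0.20 ± 0.10, q = 0.71). Both are factors of start codon selection. In the group of start codon selection and subunit joining, EIF1B, EIF1AD, EIF1AY and EIF5B had -0.17, -0.06, 0.01 and 0.12 in H minus M. None of these was past p under 0.05. Without M replicate 19, 7 members were lower, as were 931 of 22127 probe sets, against 667 probe sets with all animals. The count of members was 1 without any single L animal, without M replicate 1, 8 or 20, or without H replicate 11, 12, 17 or 18. Between 543 and 727 probe sets were lower in those settings.

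Set against the control diet, the L group showed 0 of 68 members at an unadjusted p under 0.05 in either direction (limma), where 0.653% of all genes were lower and 1.02% higher in L. Of the members, 16 were below 0 (23.5%), as were 46.6% of all genes, and the median log2 fold change of L minus M was 0.07. The smallest p belonged to EIF6, which keeps the large ribosomal subunit from joining too early, with 7.06, 7.24 and 7.51 in L animals, against 6.43, 6.95 and 7.53 in M animals (0.31 ± 0.16, q = 1.0), and to EIF2B3 (0.25 ± 0.13, q = 1.0). The comparisons of H with L and of L with M share the L animals, so that EIF2B3, with -0.32 and 0.25, is no repeat of a result in other animals. Without M replicate 1, 2 members were past p under 0.05, and 1 was without H replicate 3, L replicate 6 or 15, or M replicate 8 or 20. Of 22127 probe sets, 607 were higher and 388 lower in L without M replicate 1, against 331 and 170 with all animals.

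Levels of the members moved together from animal to animal. After diet and sex were removed, pairs of members correlated on average with r = 0.30 over the 20 arrays, against 0.04 for pairs of all 9346 genes. This mean was 0.38 within the initiation factors, 0.40 within the eIF3 subunits, 0.38 within the elongation factors and 0.43 within the cytosolic synthetases, and initiation factors correlated with cytosolic synthetases at 0.42. Among the mitochondrial synthetases the mean was 0.01, and it was 0.08 between them and the initiation factors. Many of the mitochondrial synthetases were dim. Their mean levels ran from 4.77 (FARS2) to 7.68 (IARS2), against 5.60 (VARS) to 10.19 (KARS) for the cytosolic synthetases. The part of these low levels in the correlations was not tested. All values of an animal come from 1 array, and the marker levels given above vary between the same animals, so these means are descriptions.

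The mean deviation of the initiation factors from their 20-array means was -0.18, 0.12 and 0.18 (lowest, median, highest) in L animals, -0.28, 0.06 and 0.26 in M animals and -0.43, 0.01 and 0.07 in H animals. The 3 groups overlapped, and the spread within each group exceeded the distance between their medians. The same measure for the cytosolic synthetases was -0.11, 0.10 and 0.16 in L animals, -0.30, 0.02 and 0.23 in M animals and -0.34, 0.00 and 0.14 in H animals. For the mitochondrial synthetases, many of them dim, it stayed between -0.19 and 0.11 in all animals.

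**Figure D4:**
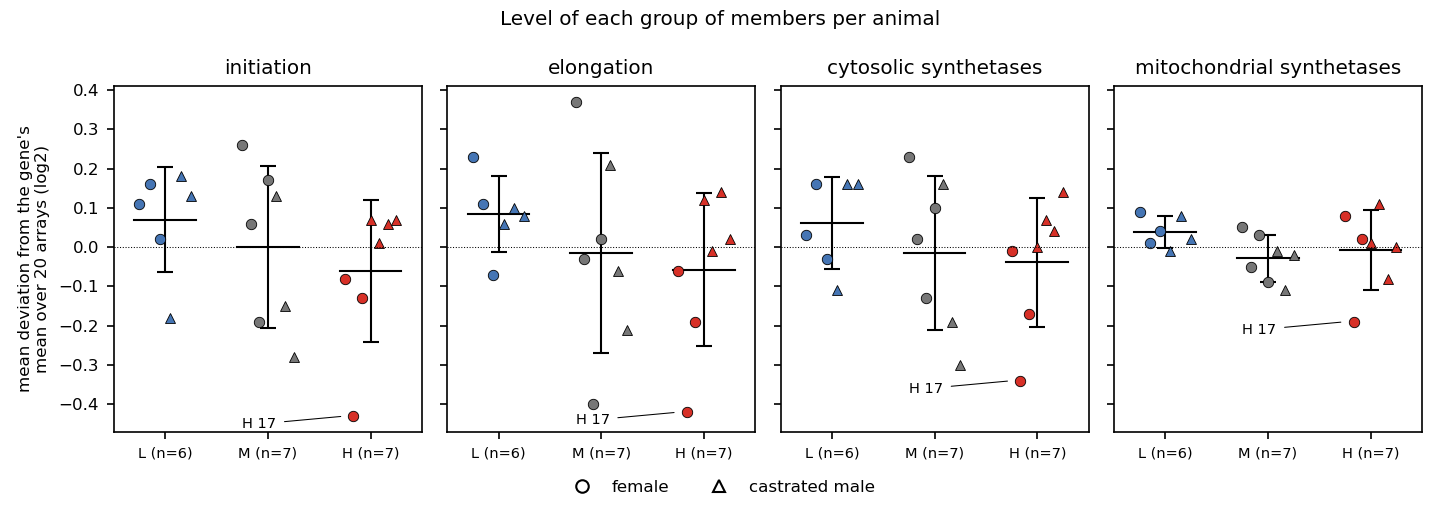
Mean deviation of the tested members of each group from their means over 20 arrays (y axis, log2), with 1 point per animal (circles are females, triangles castrated males), for the diets from low to high mineral content; bars are the mean and SD. H replicate 17 is marked and is the lowest animal in all 4 panels, and the mitochondrial synthetases, many of them dim, have the smallest spread.

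Many of the lowest values came from a single animal. H replicate 17, a female, was the lowest of the 20 animals for 30 of the 68 members (44.1%) and for 18.4% of all genes. The same array had the lowest level of the T cell (-1.0), B cell (-0.83) and NK and cytotoxic (-0.92) markers, with 0.90 for the monocyte markers and a background level of 3.92; the part of these in its low values was not tested. Without H replicate 17, 43 of 68 members lay below 0 in H minus L, with 49.9% of all genes, and 4 were lower at p under 0.05 (2.16% of all genes): EIF1 (-0.30), EIF3K (-0.35), KARS (-0.31) and EIF4EBP2 (-0.35). SARS (-0.30) and EIF2B3 (-0.25) were then not past it. With arrays weighted by their quality, which gave this array a weight of 0.539, EIF3K, EIF4EBP2 and KARS passed the threshold of p under 0.01 and q under 0.21, as did 4.68% of all genes.

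The difference of H minus L was more negative in females than in castrated males for most members, but no member passed the test of the difference. The median log2 fold change of H minus L over the initiation factors was -0.28 in females (36 of 38 below 0) and 0.02 in castrated males (18 of 38). In females it was -0.26 over the elongation factors, -0.15 over the cytosolic synthetases and -0.09 over the mitochondrial synthetases, against -0.02, -0.03 and 0.00 in castrated males. In the interaction of diet and sex (limma), female minus male lay below 0 for 55 of 68 members (80.9%) and for 61.9% of all genes. At an unadjusted p under 0.05, 7 members were below 0 (4.26% of all genes) and 1, YARS, above it (0.995% of all genes). The smallest adjusted p was 0.898 (Benjamini-Hochberg over 22127 probe sets).

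EIF2B1 had the smallest interaction p, with a log2 fold change of H minus L of -0.30 in females and 0.55 in castrated males (female minus male -0.85, adjusted p = 0.898). These values are of its brightest probe set, and its other 2 kept probe sets had the opposite sign in H minus L over both sexes. SARS followed, with -0.77 in females and -0.05 in castrated males, then EIF2S1, with -0.54 in females and 0.26 in castrated males, both with an adjusted p = 0.898. EEF1E1, EIF5A, EIF4A3 and EEF1D had between -0.74 and -0.58 in females and between -0.03 and 0.08 in castrated males. EIF5A, the factor that helps the ribosome through difficult stretches of peptide, had 8.65, 9.44 and 10.01 in H animals, against 9.11, 9.73 and 10.02 in L animals (-0.29 ± 0.20, exact permutation p = 0.214 over both sexes). EIF1 had -0.13 in females and -0.42 in castrated males (adjusted p = 0.898). Without H replicate 17, 50 members lay below 0 in female minus male, as did 58.2% of all genes. Of these members, 2 were at p under 0.05, as were 2.64% of all genes. Without L replicate 6, a castrated male, the median over the initiation factors in castrated males was -0.12.

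In females alone, all 3 H animals were below all 3 L animals in 18 of the 68 members (26.5%), against 11.3% of all genes. These were 12 of the group of initiation factors with their regulators, among them EIF3K, EIF3E, EIF2B2, EIF2B3, EIF2B4 and the repressor EIF4EBP2. In addition they were EEF1D, EEF1E1, KARS, SARS, MARS2 and RARS2. KARS had 9.50, 9.85 and 9.96 in H females, against 10.22, 10.58 and 10.59 in L females. SARS had 7.94, 8.0 and 8.45 in H females, against 8.69, 8.90 and 9.13 in L females. EIF4G3 was the 1 member with all H females above all L females (4.41% of all genes). In castrated males, 4 H animals lay below all 3 L animals in 2 members, EIF1 and EIF5 (2.17% of all genes), and above them in 2, AARS and EIF2B1 (5.52% of all genes). EIF1 had 8.04, 8.35, 8.45 and 8.46 in H castrated males, against 8.63, 8.79 and 8.81 in L castrated males. The T cell markers were also low in H females (-1.0, -0.32 and -0.18), against -0.07, 0.12 and 0.37 in L females, without overlap. The genes of dividing cells were low in the same way, with -0.76, -0.60 and -0.23 in H females, against -0.20, 0.03 and 0.27 in L females, also without overlap. The part of both lists in these counts was not tested.

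**Figure D5:**
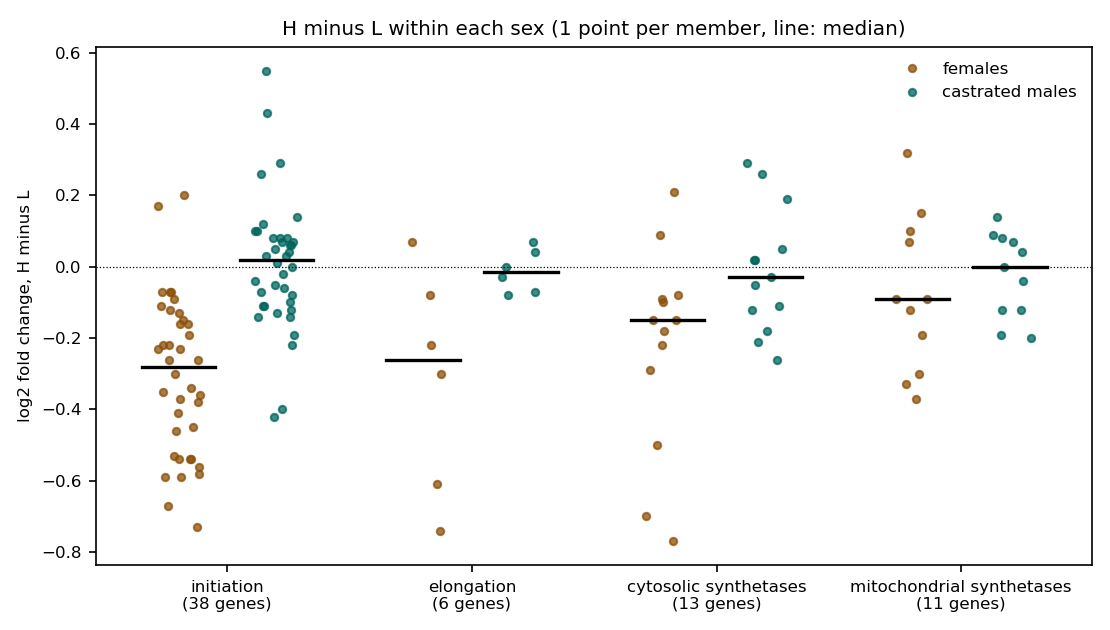
Log2 fold change of H minus L (y axis) within females (brown) and within castrated males (green), with 1 point per tested member in 4 groups of members; black lines are medians. The initiation factors have a median of -0.28 in females and 0.02 in castrated males, and the 2 clouds overlap in every group.

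Genes that act beside the members gave few differences. Of the eIF2 kinases, EIF2AK2, which double-stranded RNA activates and interferon induces, had 9.74, 10.36 and 10.60 in H animals, against 8.56, 9.39 and 10.49 in L animals (0.79 ± 0.24, q = 0.426, limma). The genes of the interferon response had a median of 1.08 in the same contrast, as given above. EIF2AK1, EIF2AK3 and EIF2AK4 had -0.10, -0.06 and -0.12. The stress targets of this branch did not share a direction: ATF4 had -0.26 ± 0.16, ASNS -0.36 ± 0.18, ATF3 0.60 ± 0.36 and DDIT3 0.28 ± 0.25. Of the 11 tested genes of this list, 1 was past p under 0.05 in H against L, higher, and 0 were lower.

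In the other lists, 1 gene in each of 2 lists was past p under 0.05 in H against L. LARP1, which binds the mRNAs of the translation machinery under control of mTOR, was the 1 of 4 tested partners of the cap complex, with 8.46, 9.12 and 9.72 in H animals, against 9.18, 9.45 and 9.57 in L animals (-0.34 ± 0.14, q = 0.494). DPH1, an enzyme of the diphthamide modification of eEF2, was the 1 of 4 enzymes of the hypusine and diphthamide list (-0.49 ± 0.23, q = 0.518). None was past it among 5 genes of termination and recycling, 7 mitochondrial translation factors, 3 partners of the synthetases and 10 genes of the mTOR and MNK branch, whose medians were -0.13, -0.07, -0.17 and 0.02. HBS1L, a factor that rescues stalled ribosomes, had the smallest p of these lists in H against M (-0.80 ± 0.23, q = 0.515).

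The 3 argonaute genes, whose proteins carry small RNAs, were outside the counts. AGO1, AGO2 and AGO4 had -0.11 ± 0.13, 0.00 ± 0.11 and -0.08 ± 0.17 in H minus L. The 6 members that did not pass the filter were EEF1A2, EEF1G, EIF4B, EIF5A2, LARS and MARS. EEF1G (2.82, 3.05 and 3.23 in H animals, against 2.29, 2.85 and 3.38 in L animals) and LARS (1.39, 1.6 and 1.86 in H animals, against 1.51, 1.59 and 1.95 in L animals) were read below the mean of the background controls, so these probe sets give no level of their genes. Of the 20 members with more than 1 kept probe set, 12 had all of them below 0 in H minus L, 2 had all above it and 6 had values on both sides of 0 or at 0, and the values of these 6 depend on the probe set.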

How the data were processed

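The authors prepared PBMC from EDTA blood by density centrifugation. Each RNA went onto its own Affymetrix array of the snowball design, which holds 47845 pig probe sets. Arrays were read with GCOS 1.1.1. The values used are the log2 RMA values as deposited by the authors (background correction, quantile normalization, probe summary). Quantile normalization removes most of a change that all transcripts share. According to the methods, 1 of the arrays was excluded in quality control. No genome positions were used.

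Gene names are those of the array annotation, 446 of them updated through synonyms; EIF4GI was merged with EIF4G1, and 26426 probe sets had 1 name. The brightest probe set stood for a gene. The filter on low values, which required 16 of 20 arrays, kept 22127 probe sets, 123 control probe sets having been left out before. This stands in for presence calls. The 3 diets were fitted in limma 3.58.1 (R 4.3.3) with sex as a covariate. p-values were adjusted over all kept probe sets (Storey q, Benjamini-Hochberg), and called means p under 0.01 with q under 0.21, the threshold of the methods. Litter is not in the labels and was left out. Nothing in the labels marks batches, and the number of arrays limits the precision. For named members the exact permutation test (two-sided) shuffled L and H animals. All p-values measure the spread between these animals, littermates among them.

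Named members were EEF1A1 and EIF3K, the 5 of smallest p per group in H against L, the 3 in H against M and the 2 in L against M, the 3 of highest value, and EIF2S1, EIF4E, EIF4EBP1, EIF5A, EIF6, EEF2 and EEF2K, with up to 2 genes per accompanying list; others were named after their values were seen. Members, lists and tests were chosen with earlier results of these data known. The steps were tested on simulated data. Alternatives were other filters, no sex term, no moderation, trend and robust fitting, array weights, centring, cyclic loess, the mean of probe sets, marker covariates, L and H arrays alone, and leaving out each animal. Added after the data were seen was the interaction without each animal. Figures were drawn with matplotlib 3.10.9.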

Additional observations from a re-analysis of the deposited data

Results flagged for a closer look

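In 93 groups of animals that were checked (27 named members and 4 group levels in 3 diets), 7 had 1 animal far from the others by Dixon's criterion, where chance gives about 5% of the groups. H replicate 17 was low in the level of the initiation factors (-0.43, with the next H animal at -0.13) and in IARS2 (7.04, with the next at 7.62). M replicate 19 was low in EIF3K (10.13, with the next M animal at 10.77) and high in EARS2 (6.04, with the next at 5.76). M replicate 1 was high in EIF2B3 (6.44, with the next at 6.10). H replicate 3 was low in EIF6 (6.61, with the next at 7.15), and L replicate 5 was low in NARS2 (6.50, with the next at 6.79). Without M replicate 19 the smallest q of a member in H against L was 0.339, and without H replicate 3 EIF6 had 0.02 in H minus L.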

How the results depend on the processing

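For the 27 named members, 292 values of H minus L under alternatives other than leaving out an animal held 278 with the same direction and side of p under 0.05, 4 no longer past it, 10 newly past it and 0 of opposite sign. Members lower in H than L numbered 6, with 10 under cyclic loess, 3 with marker covariates and 4 to 9 without 1 animal. Of all genes, 4.21%, 4.78%, 2.15% and 2.16% to 5.59% were lower in these settings. Members higher numbered 0, with 1 under array weights or marker covariates and 0 to 1 without 1 animal. Of all genes, 4.96%, 6.74%, 1.2% and 3.61% to 6.56% were higher in the main fit and these settings. Lower in H than M were 2, with 1 when sex was left out, with trend and robust fitting, array weights, centring or the mean of probe sets. There were 4 under cyclic loess, 0 with marker covariates and 1 to 7 without 1 animal. Of 22127 probe sets, 667 were lower in the main fit, 633 without the sex term and 652 with trend and robust fitting. Under array weights 1128 were lower, after centring 630 and under cyclic loess 775. With marker covariates 424 were lower, and without 1 animal 543 to 931. With the mean of probe sets, 511 of 16792 genes or unnamed probe sets were lower. Members higher in H than M were 0, with 1 without the filter and 0 to 1 without 1 animal. Of 22127 probe sets, 824 were higher in the main fit and 491 to 1256 without 1 animal. Without the filter, 1366 of 47722 were higher. L against M gave 0, with 1 without the filter, under cyclic loess or with marker covariates, 2 under array weights and 0 to 2 without 1 animal. Of 22127 probe sets, 331 were higher and 170 lower in L in the main fit. Under cyclic loess 354 were higher and 225 lower, with marker covariates 331 and 249, and without the filter 750 and 745 of 47722. Under array weights 454 were higher and 292 lower, and without 1 animal 242 to 607 were higher and 143 to 388 lower. The median of the mitochondrial synthetases was -0.06, with -0.17 under a stricter filter, which tests fewer genes, 0.02 with marker covariates and -0.08 to 0.00 without 1 animal. Among 540 values without 1 animal, 513 kept direction and side and 10 changed sign, in EEF2K (-0.06 to 0.12), EIF6 (-0.15 to 0.02), EIF2S1 (-0.22 to 0.01), EIF4E (-0.12 to 0.02) and EEF1A1 (-0.11 to 0.00). The cause of these shifts was not tested. The promoter letters could not be searched. No paired analysis was possible because the animals of the 3 diets share no replicate number. With 6 or 7 animals a group, differences under about 0.30 on the log2 scale lie within the median interval.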

Other observations

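EIF2S3, which encodes a subunit of eIF2 and is X-linked in mammals, had 6.65, 7.25 and 7.53 (lowest, median, highest log2 value) in the 10 castrated males, against 7.16, 7.82 and 8.12 in the 10 females. The log2 fold change of castrated males minus females was -0.56 ± 0.14 (SE, adjusted p = 1.0, limma with diet in the fit). These values are of its brightest kept probe set. Another probe set with this name was above the array median on 10 of the 20 arrays and was not tested. It ran from 2.93 to 8.82 in H animals and from 2.34 to 8.67 in L animals. Its values were not compared between the sexes, so the direction for the gene rests on 1 probe set. EEF2 was the 1 member higher in castrated males at an unadjusted p under 0.05 (0.20 ± 0.09, adjusted p = 1.0), and EIF2S3 the 1 member lower, where 0.749% and 1.08% of all genes passed the same threshold. The probe set named EIF1AY had 7.69, 8.07 and 8.77 in castrated males, against 7.99, 8.41 and 8.79 in females, so it was read in both sexes.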
